A study of Mus musculus with 2 samples.

Results

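GABA is the main inhibitory transmitter of the forebrain, and the 26 genes described here make it, load it into vesicles, clear it, detect it and set the chloride gradient on which its effect depends. They were chosen by symbol: Gad1, Gad2 and Slc32a1 (synthesis and vesicle loading), Slc6a11 and Abat (uptake and breakdown), 9 GABA-A receptor subunit genes, Gabbr1 and Gabbr2 (the GABA-B receptor), Glra2 and Glrb (the glycine receptor), Slc12a2 and Slc12a5 (chloride transport), Gphn, Nlgn2, Slitrk3 and Iqsec3 (the inhibitory postsynapse), and Gabarap and Gabarapl1 (trafficking). All 26 were found among the 33938 genes of the deposited tables. RNA of single nuclei from neocortices dissected from mouse embryos was measured with a droplet method that counts the 3' ends of transcripts. Each genotype label, MEN1-F/F and MEN1-NCKO, has 1 library, and the title of the study names menin, the product of Men1, in the making of the cortex. The age of the embryos, how many were pooled, the cells that carry the NCKO deletion and the part of Men1 it removes were not given in the sources used here.

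A GABA-A receptor is a chloride channel of 5 subunits, most often alpha, beta and gamma, and the subunits differ in when and where they are used. In embryonic neurons the importer NKCC1 (Slc12a2) loads cells with chloride, so that GABA can depolarise them, and the exporter KCC2 (Slc12a5) rises as neurons mature and makes GABA inhibitory. Glycine receptors that contain the alpha 2 subunit (Glra2) are also found in the immature cortex. Interneurons of the cortex are born in the medial and caudal ganglionic eminences (MGE, CGE) and striatal projection neurons in the lateral one (LGE), while the excitatory neurons are born in the cortex itself.

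The nuclei kept were 6130 with 26822147 UMIs (distinct transcripts counted) in the F/F-labelled library and 9807 with 41228083 in the NCKO-labelled one, with a median of 3672 and 3580 UMIs per nucleus. Nuclei were grouped into types by markers, without using any of the 26 genes, and are called "-like" for that reason. Of 83 clusters, 58 were named, and 15.9% and 15.3% of the nuclei stayed unnamed. Striatal-like nuclei made up 10.6% and 9.83%, although the labels give the tissue as cortex. All 12 markers of that type were detected in them, but also in upper-layer-like, layer 5-like and layer 6-like nuclei. Since the same markers gave the name, their detection does not test it. Men1 was not lower over all nuclei of the NCKO-labelled library: it had 278 UMIs (10.4 CPM, the UMIs of a gene scaled to the same large total of UMIs in every group) in the F/F-labelled and 557 (13.5 CPM) in the NCKO-labelled library, a ratio of 1.30 (1.13 to 1.51). In radial glia or astrocyte-like nuclei it had 21 against 11 UMIs, a ratio of 0.332 (0.144 to 0.720). The NCKO-labelled library had more Men1 in upper-layer-like (1.46-fold, 1.09 to 1.98), layer 6-like (1.84-fold, 1.19 to 2.92) and striatal-like nuclei (1.73-fold, 1.06 to 2.92). In the other types compared below, the interval covered both directions. Since the deleted part is unknown and the tags come from transcript ends, these counts do not test the labels, and libraries are named by them. Fewer cells of a kind within a type and less RNA per cell cannot be told apart in the sums below. The libraries shared 14 of the kept barcodes, and the profiles of such pairs correlated no more (median 0.381) than pairs with different barcodes (0.402). No replicate exists for either label, so no test was possible. Intervals in parentheses are exact 95% intervals that cover counting error only, and each difference is between these 2 libraries.

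The enzymes of GABA synthesis, Gad1 and Gad2, and the vesicular transporter Slc32a1 set the GABAergic types apart by the largest folds among the 26 genes. All lie on the plus strand of chromosome 2 (GRCm38): Gad1 (ENSMUSG00000070880) from 70553072 to 70602014, Gad2 (ENSMUSG00000026787) from 22622205 to 22693874, and Slc32a1 (ENSMUSG00000037771) from 158610767 to 158615748. The 250 bases before their RefSeq starts (GRCm38.p6) are shown because these genes were all far higher in interneuron-like and in striatal-like than in excitatory-like nuclei. Capitals mark 6-base matches, on either strand, to TATAAA (the TATA box), GGGCGG (the GC box), CAGCTG (an E-box) or TAATTA (the core bound by many homeodomain factors).
Gad1, chr2:70561879-70562128, plus strand: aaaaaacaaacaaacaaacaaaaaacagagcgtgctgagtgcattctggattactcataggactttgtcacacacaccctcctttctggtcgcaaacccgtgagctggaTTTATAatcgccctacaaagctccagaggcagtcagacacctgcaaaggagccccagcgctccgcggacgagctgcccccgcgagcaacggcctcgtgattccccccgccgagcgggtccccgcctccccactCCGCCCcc
Gad2, chr2:22622077-22622326, plus strand: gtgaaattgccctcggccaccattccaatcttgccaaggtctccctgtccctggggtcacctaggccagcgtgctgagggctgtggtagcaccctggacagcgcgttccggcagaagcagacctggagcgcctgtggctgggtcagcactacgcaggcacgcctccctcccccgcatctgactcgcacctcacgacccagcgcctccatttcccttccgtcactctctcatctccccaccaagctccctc
Slc32a1, chr2:158610508-158610757, plus strand: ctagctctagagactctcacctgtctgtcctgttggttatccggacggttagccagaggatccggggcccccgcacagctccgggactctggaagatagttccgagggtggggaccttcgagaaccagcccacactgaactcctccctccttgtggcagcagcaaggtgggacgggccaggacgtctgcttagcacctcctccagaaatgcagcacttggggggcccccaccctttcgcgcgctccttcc
The 3 windows were 58%, 64% and 62.4% G or C and held 17, 13 and 12 CG pairs. Only the Gad1 window held any of these letters, 1 TATA box and 1 GC box. Over 32851 RefSeq promoter windows of the same length, the TATA box was present in 12.4%, the GC box in 32.7%, the E-box in 13% and the homeodomain core in 4.84%. A match of letters describes the window and is no sign of binding.

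Gad1, which makes most of the cell's GABA, reached 291 CPM in interneuron-like nuclei of the F/F-labelled library and 290 in the NCKO-labelled one. In excitatory-like nuclei it stood at 7.57 and 8.77 CPM, so that the ratio was 38.5 (31.2 to 47.8) and 33.1 (28.3 to 39.0). Gad2, the isoform concentrated at terminals, stood at 487 and 469 CPM in interneuron-like and at 11.1 and 13.7 in excitatory-like nuclei. Slc32a1 stood at 80.3 and 74.5 CPM in interneuron-like nuclei, 32.1 (22.2 to 47.8) and 28.7 (21.4 to 39.3) times the excitatory-like level. The enzymes and the transporter thus separated these groups by far in either library. Within the GABAergic types the order differed by gene. Gad1 was highest in nuclei with Tshz1 and Pbx3 (540 and 522 CPM) and in CGE-like nuclei (477 and 434), whose intervals overlapped in both libraries, and lower in MGE-like (241 and 246) and striatal-like nuclei (195 and 227). Gad2 was also high in nuclei with Tshz1 and Pbx3 (777 and 692 CPM) and lower in striatal-like nuclei (358 and 347), but MGE-like (489 and 455) and CGE-like nuclei (478 and 516) were closer to each other. In the NCKO-labelled library cycling eminence progenitor-like nuclei had the highest Gad2 level (707 CPM, 607 to 818). Their interval overlapped that of nuclei with Tshz1 and Pbx3.

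At an equal depth of 1000 UMIs, a Gad2 UMI was found in 38.6% of interneuron-like nuclei of the F/F-labelled library (35.2 to 42.2) and 37.7% of those of the NCKO-labelled one (35.1 to 40.4). In excitatory-like nuclei the share was 0.967% and 1.24%. Vascular, immune and meningeal nuclei, which should lack the gene, had 0 of 58, which allows a share of up to 5.17%, and 3 of 172 (1.74%), at median depths of 2567.5 and 2711 UMIs against 4051.5 and 3974 in excitatory-like nuclei. So few nuclei cannot show whether the share in excitatory-like nuclei lies above the background, and it is not read as expression. CGE-like nuclei had a Gad1 UMI more often than MGE-like ones, in 46.4% against 23.6% of nuclei in the F/F-labelled library and 38.6% against 24.3% in the other.

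**Figure D1:**
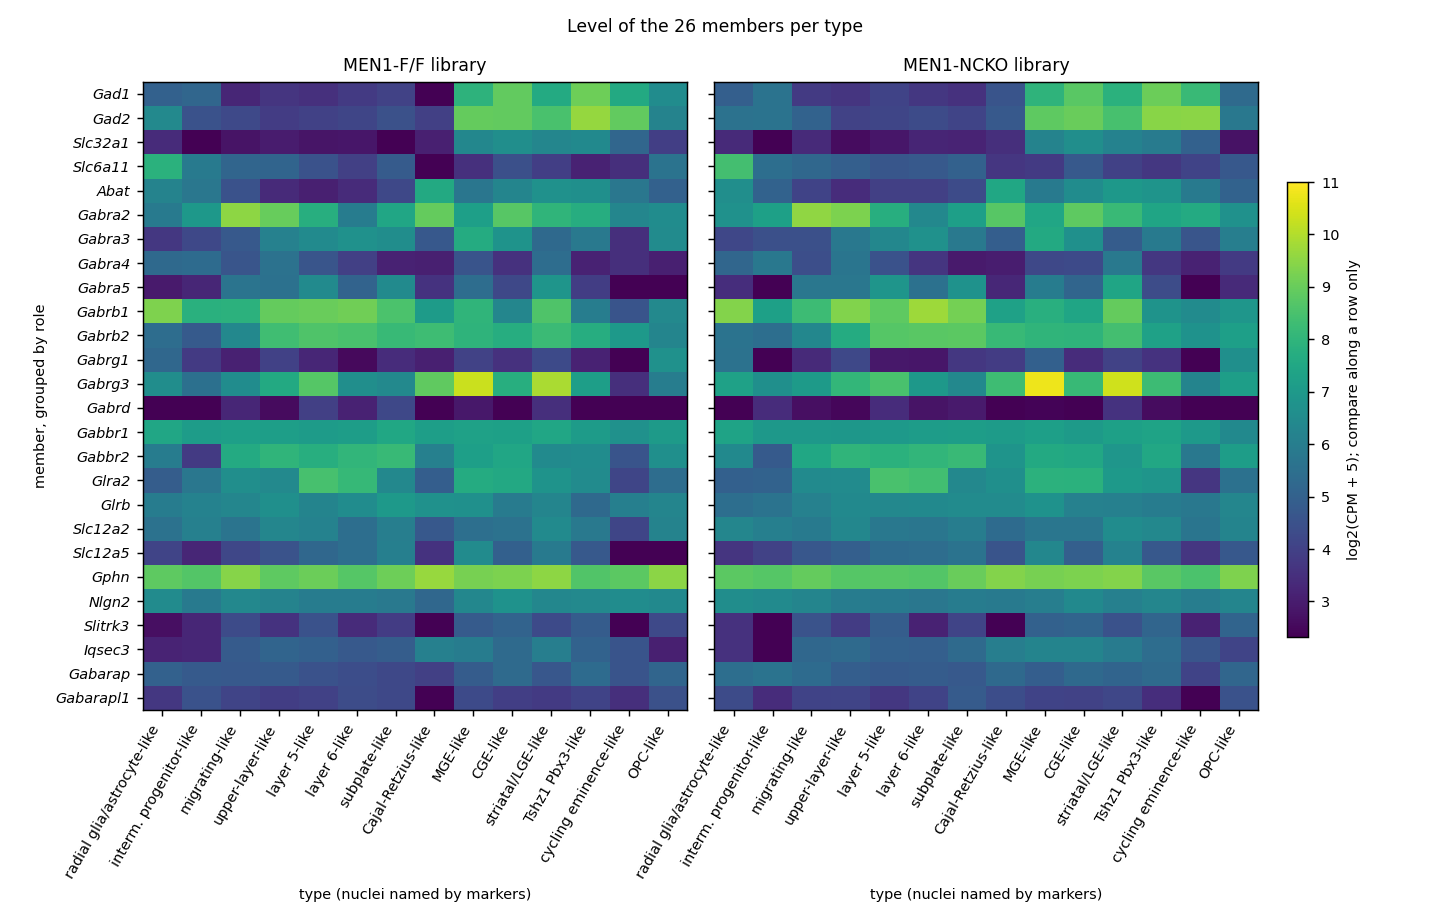
Level of each of the 26 genes (rows, grouped by role) in 14 types (columns), as log2(CPM + 5), in the MEN1-F/F library (left) and the MEN1-NCKO library (right); colours may be compared along a row only, since genes differ in length. Gad1, Gad2 and Slc32a1 were high in the GABAergic types, Slc6a11 in radial glia or astrocyte-like nuclei, and Gabra2 in migrating-like and upper-layer-like nuclei.

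Of the genes that clear GABA, Slc6a11, the transporter GAT-3 of astrocytes, was highest in radial glia or astrocyte-like nuclei at 228 CPM in the F/F-labelled and 336 CPM in the NCKO-labelled library. The next type, intermediate progenitor-like nuclei, had 54.1 and 39.3 CPM, and the intervals did not overlap. Abat, the mitochondrial transaminase that breaks GABA down, was highest in Cajal-Retzius-like nuclei (189 and 174 CPM), then in striatal-like nuclei (101 and 118 CPM). In excitatory-like nuclei Abat stood at 6.06 and 8.67 CPM, and interneuron-like nuclei exceeded this 8.73-fold (6.61 to 11.6) and 7.21-fold (5.94 to 8.76). Abat was therefore higher in interneuron-like than in excitatory-like nuclei, as the synthetic enzymes were, but was not limited to GABAergic types. Cajal-Retzius-like nuclei of the F/F-labelled library, the type with the most Abat, had 0 Gad1 UMIs.

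Alpha subunits, which set much of a receptor's pharmacology, were used differently by each type. Gabra2 was graded among excitatory types: it stood at 732 and 745 CPM in migrating-like nuclei, 501 and 627 in upper-layer-like, 210 and 212 in layer 5-like and 57.4 and 78.0 in layer 6-like nuclei. No neighbouring intervals in this order overlapped in either library, but they describe sums over a type, and clusters within a type differed widely. In the F/F-labelled library Gabra2 ran from 114 to 1839 CPM over 6 migrating-like clusters. It ran from 90.6 to 1215 CPM over 14 upper-layer-like and from 40.4 to 878 CPM over 4 layer 5-like clusters, so these ranges overlapped. Layer 6-like nuclei had 0.114 (0.0989 to 0.132) and 0.124 (0.113 to 0.137) times the Gabra2 of upper-layer-like nuclei. Gabra2 also divided the interneurons, with CGE-like nuclei at 426 and 458 CPM against 144 and 171 in MGE-like nuclei. Gabra3 was highest in MGE-like nuclei (197 and 189 CPM), went from 22.1 and 17.0 in migrating-like to 99.2 and 99.4 in layer 6-like nuclei, and was low in striatal-like nuclei (34.2 and 24.0). Gabra5, a subunit of extrasynaptic receptors, had its highest levels in striatal-like (111 and 165 CPM) and layer 5-like nuclei (84.9 and 110). Gabra4, a subunit prominent in the adult striatum and thalamus, stood at 38.0 and 52.4 CPM in striatal-like and 43.5 and 46.6 in upper-layer-like nuclei, against 10.8 and 7.62 in layer 6-like nuclei.

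**Figure D2:**
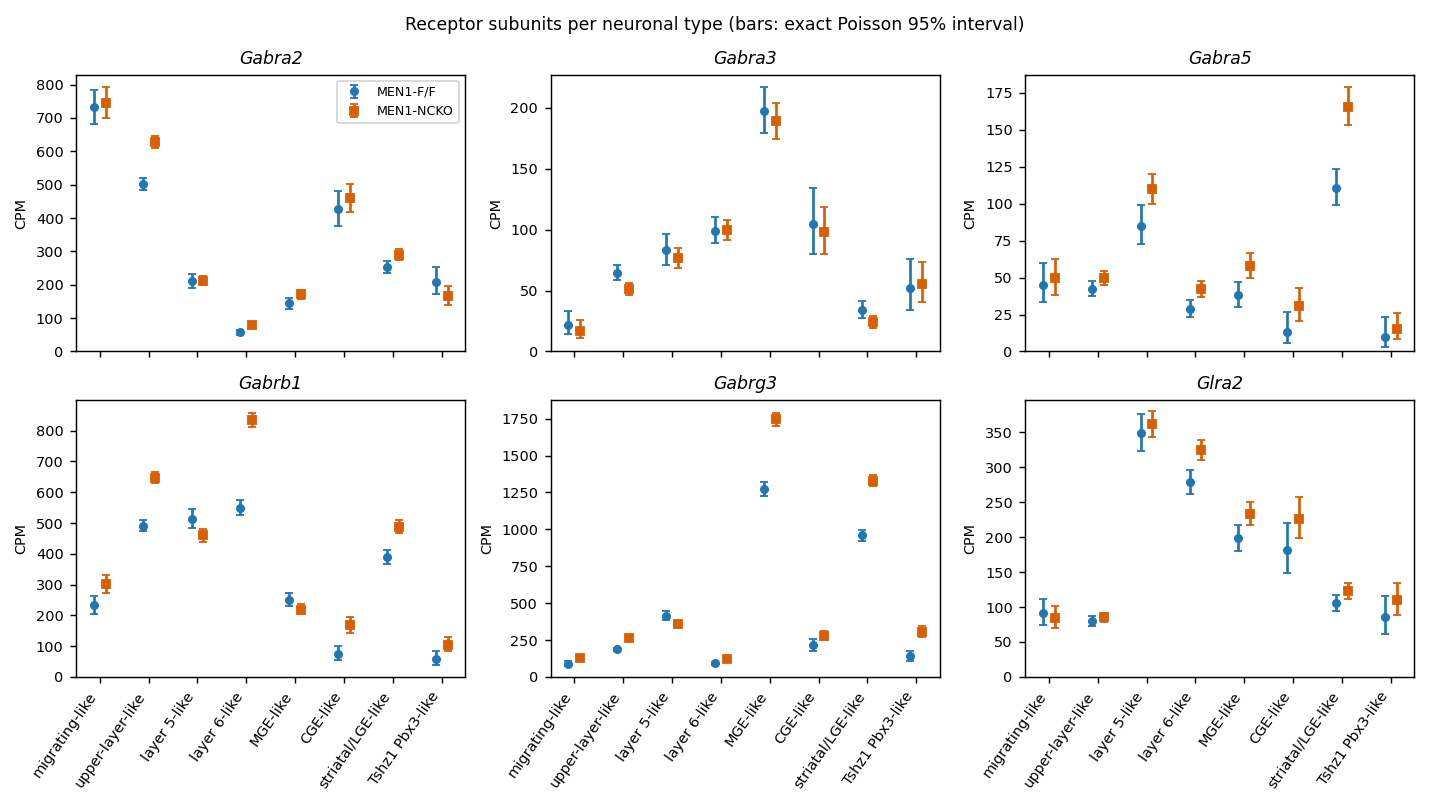
Level in CPM of 6 receptor subunit genes in 8 neuronal types (x axis) in the MEN1-F/F (circles) and MEN1-NCKO (squares) libraries, with exact Poisson 95% intervals that cover counting error only. Gabra2 falls from migrating-like (732 and 745 CPM) to layer 6-like nuclei (57.4 and 78.0), whereas Glra2 is highest in layer 5-like nuclei (349 and 361).

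Striatal-like nuclei fell into a cluster led by Ebf1 and Tac1 and a cluster led by Drd2 and Penk, genes known from the direct and the indirect pathway neurons. Gabra5 was 2.57-fold (1.94 to 3.45) and 2.44-fold (1.97 to 3.05) higher in the first, where it reached 144 and 202 CPM. Gabrb1 was 2.83-fold (2.42 to 3.31) and 1.92-fold (1.71 to 2.16) higher there, and Gabra4 2.77-fold (1.69 to 4.74) and 1.81-fold (1.28 to 2.61). Gad1 and Gabra3 were lower in it, with Gad1 at 0.504 (0.425 to 0.597) and 0.490 (0.429 to 0.559) times the level of the Drd2 and Penk cluster. These clusters were set side by side after their values had been seen.

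Among the beta, gamma and delta subunits, Gabrg3 stood out in MGE-like and striatal-like nuclei. The gene (ENSMUSG00000055026) spans 56716465 to 57387188 of chromosome 7 on the minus strand. Its level was 1274 and 1745 CPM in MGE-like and 958 and 1330 CPM in striatal-like nuclei, but 141 and 306 CPM in nuclei with Tshz1 and Pbx3. CGE-like nuclei had 214 and 280 CPM, 0.168 (0.139 to 0.201) and 0.161 (0.142 to 0.181) times the MGE-like level. Layer 5-like nuclei, at 415 and 359 CPM, had more Gabrg3 than the other excitatory types. Gabrg1, known from glia, was highest in oligodendrocyte precursor-like nuclei (99.6 and 94.5 CPM), followed by radial glia or astrocyte-like nuclei (32.6 and 43.8 CPM), with no overlap of the intervals. Gabrb1 was high in radial glia or astrocyte-like (630 and 669 CPM) and layer 6-like nuclei (549 and 835 CPM), and lower in interneuron-like than excitatory-like nuclei, 0.435-fold (0.399 to 0.473) and 0.322-fold (0.301 to 0.344). Gabrb2, a subunit of the most common adult receptor, was low in migrating-like nuclei (77.4 and 75.9 CPM) and stood at 385 and 416 CPM in layer 5-like nuclei. Gabrd, the delta subunit of tonic receptors, did not exceed 13.3 CPM in any of these 14 types and passed the minimum of 50 UMIs in none of the types compared between libraries.

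The subunit genes sit in clusters in the genome, and 4 of them are neighbours on chromosome 5. There, Gabrg1 (minus strand, 70751047 to 70842617), Gabra2 (minus, 70957597 to 71095849), Gabra4 (minus, 71569749 to 71658308) and Gabrb1 (plus, 71658113 to 72149037) follow each other. Gabrg1 was highest in oligodendrocyte precursor-like and Gabra2 in migrating-like nuclei in both libraries. For Gabra4 (upper-layer-like and striatal-like) and Gabrb1 (radial glia or astrocyte-like and layer 6-like) the intervals of the 2 highest types of the F/F-labelled library overlapped. Gabra4 and Gabrb1 overlap at their starts on opposite strands, and some of their UMIs could be shared, since use of strand in the counting is not stated by the sources. Gabra5 on chromosome 7 overlaps Gm9962 on the other strand, and Gad1 overlaps Gad1os. In all, 7 of the 26 genes overlap another counted gene.

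The 2 genes of the GABA-B receptor, a G protein-coupled receptor that needs both subunits, had unequal ranges. Gabbr1 lay between 99.7 and 173 CPM over these types in the F/F-labelled library. Gabbr2 ranged from 9.01 CPM in intermediate progenitor-like to 280 CPM in subplate-like nuclei of the F/F-labelled library and from 22.5 to 292 CPM in the same types of the NCKO-labelled one. In striatal-like nuclei Gabbr2 had 0.351 (0.307 to 0.399) and 0.461 (0.418 to 0.508) times the level of excitatory-like nuclei. Glra2, on the X chromosome, was highest in layer 5-like (349 and 361 CPM) and layer 6-like nuclei (278 and 324), and stood at 79.6 and 85.1 CPM in upper-layer-like nuclei. Layer 5-like nuclei exceeded upper-layer-like ones in Glra2 by 4.38-fold (3.91 to 4.92) and 4.25-fold (3.88 to 4.65). Summed over types, layer 5-like and layer 6-like nuclei thus had more Glra2 and less Gabra2 than upper-layer-like nuclei. This did not hold for every cluster. Gabra2 reached 878 and 877 CPM in the highest layer 5-like cluster of each library, and 90.6 and 235 CPM in the lowest upper-layer-like cluster. Glrb, the beta subunit that anchors glycine receptors to gephyrin, was flatter, between 33.9 and 122 CPM in the F/F-labelled library.

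Of the chloride transporters, the exporter Slc12a5 was highest in MGE-like nuclei (85.6 and 76.5 CPM), and the intervals overlapped those of subplate-like nuclei (62.8 CPM) in the F/F-labelled and of striatal-like nuclei (66.3 CPM) in the NCKO-labelled library. CGE-like nuclei had 26.9 and 25.8 CPM, 0.315 (0.176 to 0.525) and 0.338 (0.218 to 0.503) times the MGE-like level. Among excitatory types it went from 12.9 and 20.6 CPM in migrating-like over 18.5 and 26.2 in upper-layer-like to 39.1 and 38.3 in layer 6-like nuclei. The importer Slc12a2 varied less among neurons, from 39.3 to 83.1 CPM in the 7 types that make up the excitatory, interneuron and striatal groups of the F/F-labelled library, and reached 524 and 391 CPM in the few pericyte-like nuclei. At the postsynapse, the scaffold gephyrin (Gphn) was broadly present, between 398 and 803 CPM in the F/F-labelled library, and the adhesion molecule Nlgn2 between 32.1 and 101 CPM. Slitrk3, another adhesion molecule of inhibitory synapses, stood at 24.5 and 28.1 CPM in interneuron-like against 8.86 and 11.5 CPM in excitatory-like nuclei. Iqsec3, an exchange factor bound to gephyrin, stood at 52.9 and 69.7 against 26.7 and 30.5 CPM. Gabarap and Gabarapl1, small ubiquitin-like proteins of receptor trafficking and autophagy, reached at most 44.9 and 23.1 CPM in the types of the heat map.

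Counted together, 7 of the 26 genes were at least 2-fold higher in interneuron-like than excitatory-like nuclei in both libraries (Gad1, Gad2, Slc32a1, Abat, Gabra3, Gabrg3 and Slitrk3), where 2.67% of all 15048 genes with enough UMIs were. Gabrb1 alone was at least 2-fold lower, against 2.65% of all genes (5.32% in either direction). Slitrk3 lies just past this limit, with a log2 ratio of (CPM + 5) of 1.09 and 1.002. Striatal-like nuclei had 6 of the 26 higher than excitatory-like ones (Gad1, Gad2, Slc32a1, Abat, Gabra5 and Gabrg3), against 3.4% of all genes, and Gabbr2 lower, against 3.05% (6.45% in either direction). Between striatal-like and interneuron-like nuclei, Gabra4 and Gabra5 were higher (3.66% of all genes) and Gabra3 lower (3.24%, and 6.9% in either direction). Among other genes of the pathway, named after their values were seen, the neurexin Nrxn3 was higher in interneuron-like than excitatory-like nuclei (28.3-fold and 22.1-fold), as were the GABA-B auxiliary subunits Kctd8 (3.32-fold and 4.65-fold) and Kctd16 (2.48-fold and 3.65-fold). Since the 26 genes include ones that define GABAergic cells, the counts of members describe the types. The median log2 ratio of the 26 genes was 0.22 and 0.19 between interneuron-like and excitatory-like nuclei, and that of all genes 0.05 and 0.06.

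**Figure D3:**
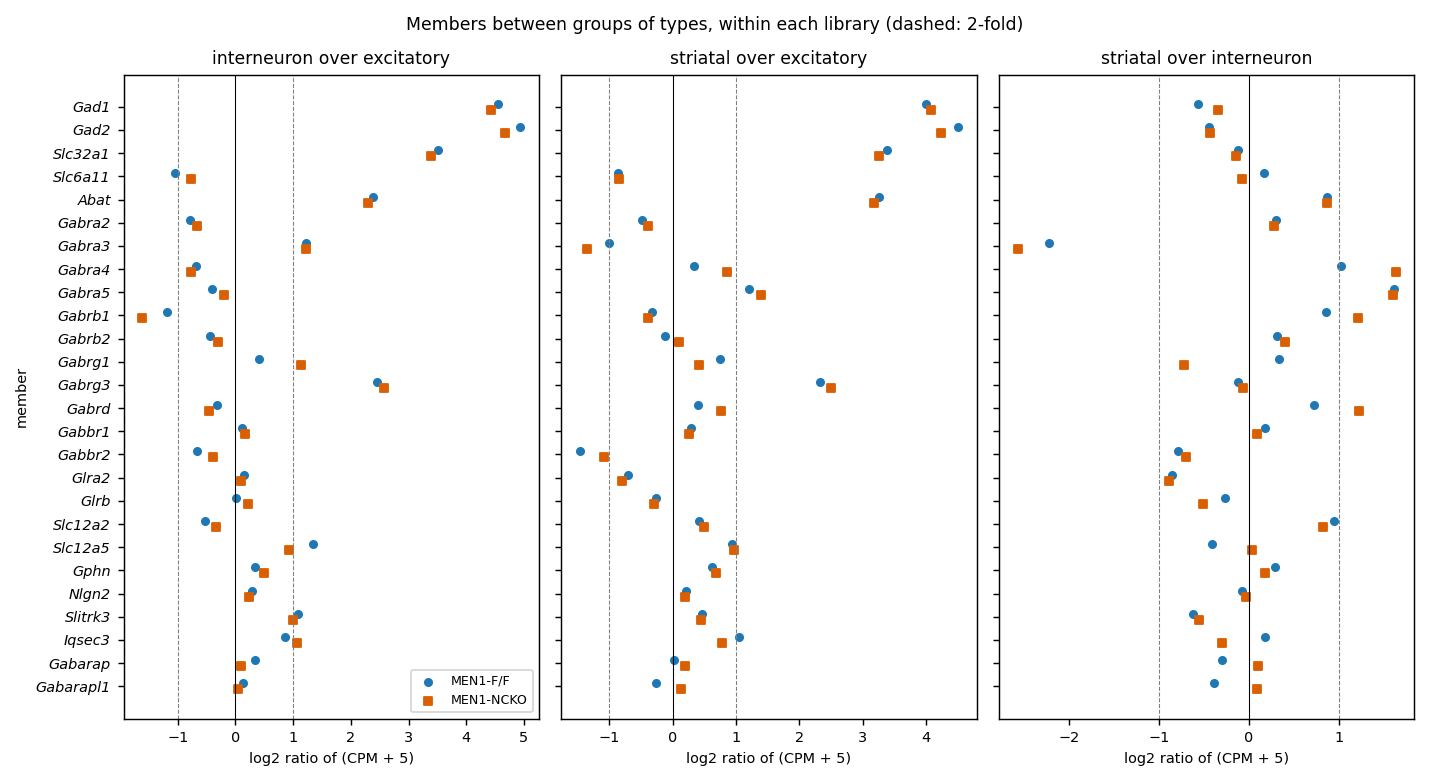
Log2 ratio of (CPM + 5) of the 26 genes between groups of types within the MEN1-F/F (circles) and the MEN1-NCKO (squares) library; dashed lines mark 2-fold. Gad1, Gad2 and Slc32a1 lie far to the right in both comparisons with excitatory-like nuclei, and Gabra3 lies to the left between striatal-like and interneuron-like nuclei.

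Other pairs of types were set side by side after their values had been seen. Upper-layer-like nuclei had 4 of 24 comparable genes at least 2-fold higher than migrating-like nuclei in both libraries (Gabra3, Gabrb1, Gabrb2 and Gabrg3) and 0 lower, against 2.88% and 2.38% of all genes. Layer 6-like nuclei had Glra2 higher than upper-layer-like nuclei (2.56% of all genes) and Gabra2, Gabra4 and Gabrg1 lower (1.84%, and 4.4% in either direction). CGE-like nuclei had Gabra2 higher than MGE-like ones (1.9%) and Gabrg3 and Slc12a5 lower (3.88%). Radial glia or astrocyte-like nuclei exceeded excitatory-like ones in Gad1, Gad2, Slc6a11, Abat and Gabrg1 (10.5%) and were below them in 7 genes (7.88%), which were Gabra2, Gabra3, Gabra5, Gabrb2, Gabbr2, Glra2 and Iqsec3.

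The NCKO-labelled library was then compared with the F/F-labelled one within each of the 10 types that had at least 100 nuclei in both, and a gene is called past the fold at 1.5-fold on the (CPM + 5) scale. The pseudocount of 5 draws the ratios of low genes towards 0. Over all nuclei 0 of the 26 genes passed, where 1.17% of all 17155 tested genes did (0.414% higher and 0.758% lower in the NCKO-labelled library). Over excitatory-like nuclei 0 passed as well, against 2.35% of all genes (0.755% higher, 1.6% lower). Over interneuron-like nuclei 1 of 25 was higher, against 4.48% in either direction (2.44% higher, 2.04% lower). Within the 10 types, 17 pairs of a gene and a type were higher in the NCKO-labelled library and 3 lower. In radial glia or astrocyte-like nuclei 3 of 17 tested genes were higher and 1 lower, beside 5.59% and 4.51% of all genes (10.1% in all). In migrating-like nuclei 2 of 16 were higher and 0 lower, beside 5.74% and 4.35% (10.1% in all). Upper-layer-like nuclei had 0 of 24 higher and 1 lower, beside 1.95% and 2.75% (4.7% in all), and layer 5-like nuclei 1 of 23 higher and 0 lower, beside 2.49% and 2.53% (5.03%). Layer 6-like nuclei had 2 of 22 higher and 0 lower, beside 2.56% and 1.96% (4.51%). Among interneurons, 1 of 24 was higher in MGE-like (3.15%, with 2.77% of all genes lower and 5.92% in all) and 2 of 18 in CGE-like nuclei (6.89%, with 3.65% lower and 10.5% in all). Striatal-like nuclei had 0 of 25 in either direction, where 2.44% of all genes were higher and 2.12% lower (4.56%). Nuclei with Tshz1 and Pbx3 had 4 of 16 higher and 0 lower, beside 7.68% and 5.06% (12.7%). Oligodendrocyte precursor-like nuclei had 2 of 12 higher and 1 lower, beside 8.5% and 6.63% (15.1%). In migrating, upper-layer, layer 5, MGE and CGE-like nuclei the share of the members in either direction was near that of all genes. Over the 10 types together, 8.63% of the 197 tested pairs of a member and a type were higher and 1.52% lower, beside 3.9% and 3.19% of 81019 pairs over all genes. The median log2 ratio of the members lay between 0.03 (oligodendrocyte precursor-like) and 0.21 (radial glia or astrocyte-like) in the 10 types, and that of all tested genes between -0.01 and 0.06.

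**Figure D4:**
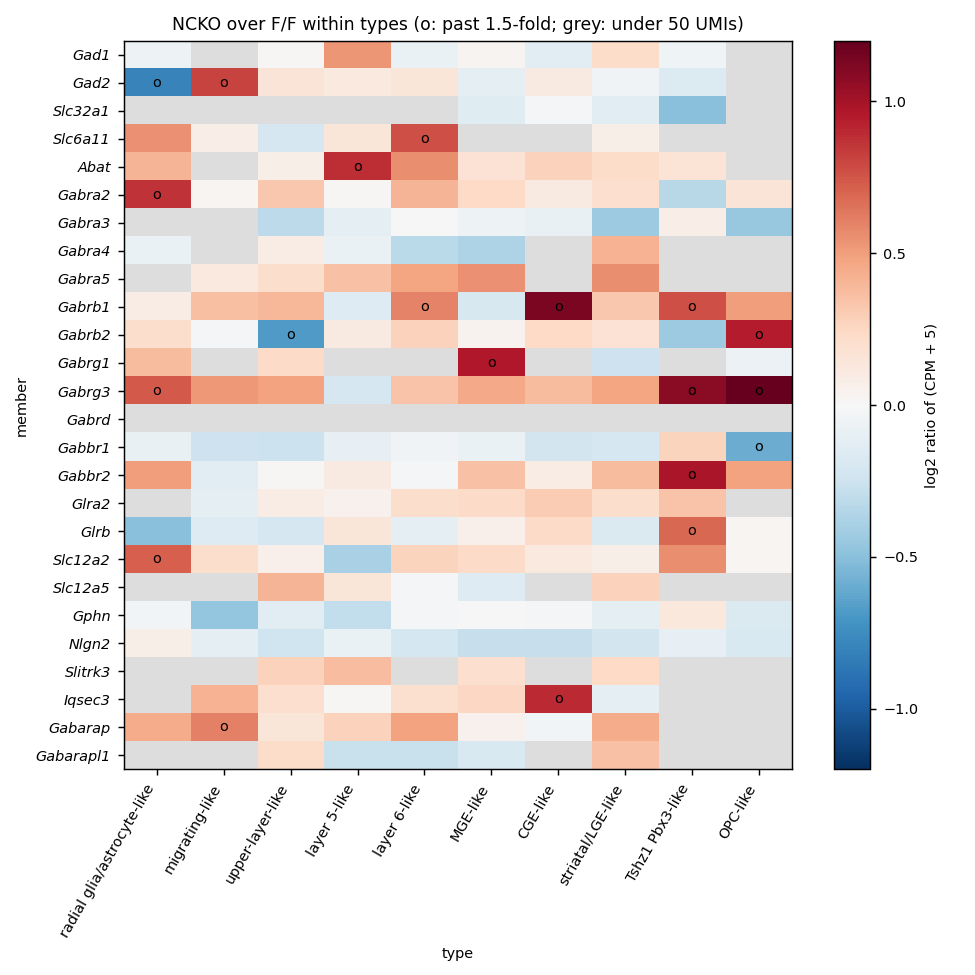
Log2 ratio of (CPM + 5), NCKO-labelled over F/F-labelled library, for the 26 genes (rows) in 10 types (columns); circles mark ratios past 1.5-fold and grey marks genes under 50 UMIs in both libraries together. Circles are scattered over 9 of the 10 types, and no circle falls in striatal-like nuclei.

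Gabrb2 in upper-layer-like nuclei was the difference with the most UMIs on the lower side. The gene (ENSMUSG00000007653) spans 42419757 to 42629028 of chromosome 11 on the plus strand and overlaps no other annotated gene. It had 2089 UMIs (320 CPM, 306 to 334) in 1511 F/F-labelled and 1652 UMIs (197 CPM, 188 to 207) in 1903 NCKO-labelled nuclei, a ratio of 0.617 (0.578 to 0.659). With every nucleus thinned to 1000 UMIs, the share with a Gabrb2 UMI was 25.5% (23.4 to 27.8) in the F/F-labelled and 15.6% (14.0 to 17.3) in the NCKO-labelled library. It was lower in 11 of the 14 clusters of this type, among them the largest, cluster 1 (307 against 148 CPM) and cluster 2 (366 against 197 CPM). Clusters 38, 42 and 48, which held 15, 26 and 18 F/F-labelled nuclei, went the other way. The log2 ratio of -0.68 became -0.81 when the clusters were given the weights they have in the F/F-labelled library. It missed the limit without doublet removal (-0.58) and at resolution 0.5 (-0.57). The summed level of the 10 upper-layer markers moved with it, from 9851 to 7217 CPM. So did the 10 radial glia markers (2169 to 1315 CPM) and the 8 migrating markers (2418 to 1821 CPM). The 8 layer 5 markers went from 1063 to 1498 CPM, and the part of these lists in the result was not tested. Layer 5-like and layer 6-like nuclei had Gabrb2 at 385 against 416 and 360 against 437 CPM.

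**Figure D5:**
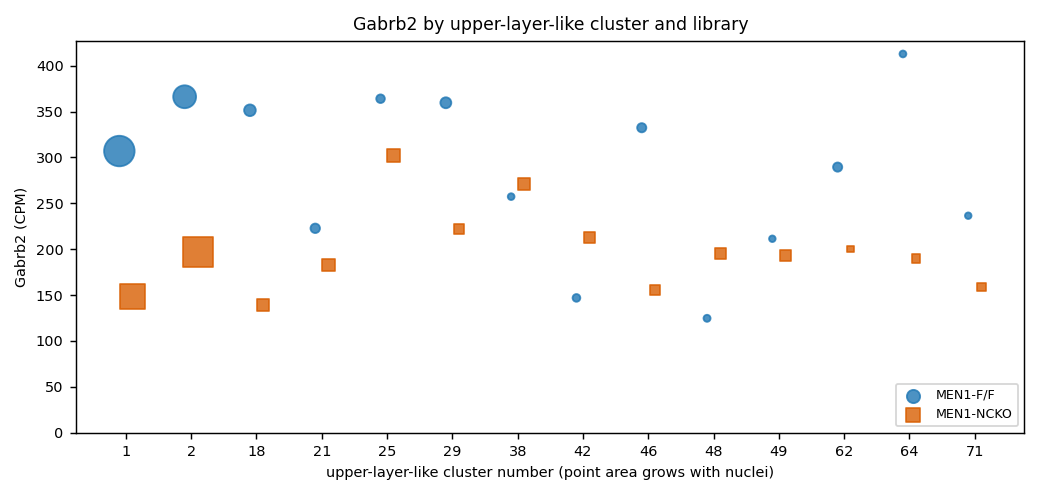
Level of Gabrb2 in CPM (y axis, from 0) in each of the 14 upper-layer-like clusters (x axis) in the MEN1-F/F (circles) and MEN1-NCKO (squares) libraries; the area of a point grows with the number of nuclei. The NCKO-labelled point is the lower one in 11 clusters, for example 148 against 307 CPM in cluster 1.

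Gabra2 and Gabrg3 were mostly higher, without passing the limit in most types. Gabra2 was higher in the NCKO-labelled library in 9 of 10 types and Gabrg3 in 9 of 10, and so was Slc12a2 (9 of 10). All types share the same pair of libraries, and of 3106 genes tested in all 10 types, 13.8% were higher in at least 9 and 11.4% lower in at least 9, so such a count is not particular to these genes. In upper-layer-like nuclei Gabra2 went from 501 to 627 CPM, a log2 ratio of 0.32, and was higher in 12 of 14 clusters. Gabrg3 passed in radial glia or astrocyte-like (89.6 against 153 CPM), Tshz1 and Pbx3 (141 against 306 CPM) and oligodendrocyte precursor-like nuclei (58.4 against 140 CPM). In the precursors, 58 of the 80 NCKO-labelled UMIs came from 5 nuclei and 27 from 1 nucleus, and in radial glia or astrocyte-like nuclei 49 of 178 came from 1 nucleus. In the precursors the ratio turned round without doublet removal (log2 -0.081) and with all barcodes (-0.33). In MGE-like and striatal-like nuclei, where Gabrg3 is highest, the log2 ratio was 0.45 and 0.47. Gabbr1 and Nlgn2 were lower in 9 of 10 types each, and only Gabbr1 passed, in oligodendrocyte precursor-like nuclei (127 against 82.3 CPM, ratio 0.648, 0.412 to 1.02, under the limit in 6 of 14 alternative settings).

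Gabrb1 passed in 3 types. In layer 6-like nuclei it went from 549 CPM (1983 UMIs) to 835 CPM (5152 UMIs), with a ratio of 1.52 (1.44 to 1.60). Clusters 26 and 43, which carried 2131 and 1407 CPM in the F/F-labelled library, held 21 and 8 F/F-labelled but 112 and 89 NCKO-labelled nuclei. With the F/F-labelled weights of the clusters the log2 ratio of 0.60 became 0.36, under the limit, and 8 of 15 alternative settings in all took it there. In CGE-like nuclei Gabrb1 stood at 74.1 CPM (44 UMIs) against 168 (176 UMIs), a ratio of 2.27 (1.63 to 3.24), and a UMI was found in 10.2% against 20.5% of nuclei. Without doublet removal its log2 ratio of 1.13 was 0.53, under the limit. The 9 CGE markers went from 37528 to 30238 CPM and the 10 MGE markers from 22348 to 18768 CPM in these nuclei, and the 8 astrocyte markers from 33.7 to 106 CPM (4 and 2 at 0), and their part in the result was not tested. In the nuclei with Tshz1 and Pbx3 it stood at 59.7 against 106 CPM.

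Tshz1 and Pbx3 nuclei had 4 genes higher in the NCKO-labelled library, Gabrb1, Gabrg3, Gabbr2 and Glrb. Gabbr2 went from 44 UMIs (87.6 CPM) to 152 UMIs (178 CPM), a ratio of 2.03 (1.45 to 2.91). Glrb went from 33.9 to 57.4 CPM, a ratio whose interval (0.960 to 3.14) includes 1, and 5 of 14 alternative settings took it under the limit. The 5 genes of the GABAergic lineage list (Dlx1, Dlx2, Dlx5, Dlx6 and Dlx6os1) summed to 4005 against 3291 CPM in these nuclei and the 6 of the excitatory list to 61.7 against 109 CPM, with no gene at 0. Lists of other types moved as well: the 12 striatal markers went from 1432 to 591 CPM (none at 0), the 6 oligodendrocyte precursor markers from 99.6 to 233 CPM (1 at 0 in the NCKO-labelled library) and the 8 astrocyte markers from 39.8 to 108 CPM (3 and 1 at 0). The part of these lists in the results was not tested.

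Gad2 passed in opposite directions in radial glia or astrocyte-like and migrating-like nuclei, from few UMIs. In radial glia or astrocyte-like nuclei its level was 80.1 CPM (59 UMIs) against 43.8 CPM (51 UMIs), with a ratio of 0.547 (0.369 to 0.810), and 24 of the 59 came from 6 nuclei of cluster 82, which is led by Otx2os1, Six3os1 and Gfap. Without clusters of under 20 nuclei the log2 ratio of -0.80 was -0.62, and without doublet removal it was 0.012. The GABAergic lineage list summed to 147 against 128 CPM there. In migrating-like nuclei Gad2 had 15 UMIs (13.8 CPM) against 38 (28.0 CPM), while that list summed to 39.6 against 36.1 CPM, with 1 of its 5 genes at 0 in the F/F-labelled library. Radial glia or astrocyte-like nuclei also had more Gabra2 (52.9 against 101 CPM, whose log2 ratio of 0.87 was 0.57 with the F/F-labelled cluster weights) and Slc12a2 (43.4 against 74.8 CPM, ratio 1.72, 1.14 to 2.67) in the NCKO-labelled library, and 4 of 14 and 4 of 15 alternative settings took these under the limit, with lowest log2 ratios of 0.43 and 0.50.

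The other results past the fold rested on under 200 UMIs. Gabrg1 in MGE-like nuclei stood at 11.4 CPM (25 UMIs) against 27.0 CPM (91 UMIs), and 72 of the 91 came from cluster 37, without which the interneuron-like log2 ratio turned from 0.80 to -0.40. Iqsec3 in CGE-like nuclei went from 35.4 CPM (21 UMIs) to 69.9 CPM (73 UMIs). Slc6a11 in layer 6-like nuclei went from 10.8 to 22.1 CPM, a ratio of 2.04 (1.42 to 2.99), and was higher in 5 of 8 clusters. The 8 astrocyte markers went from 71.8 to 107 CPM in these nuclei (4 and 0 at 0), and their part in this result was not tested. Abat in layer 5-like nuclei had 7 against 45 UMIs, and Gabarap in migrating-like nuclei 24 against 49, with an interval of the ratio (0.984 to 2.79) that includes 1. The Gabarap ratio fell under the limit in 10 of 14 alternative settings (lowest log2 ratio 0.21), and that of Abat in 3 of 11. Gabrb2 in oligodendrocyte precursor-like nuclei went from 72.1 to 144 CPM, a ratio of 1.99 (1.22 to 3.39). There the GABAergic lineage list summed to 75.5 against 166 CPM, with 1 of 5 genes at 0 in the F/F-labelled library. Gad1 (89.3 against 35.0 CPM), Gad2 (68.7 against 50.8) and Slc32a1 (10.3 against 1.75) went the other way, from few UMIs. The part of the list and of these genes in the result was not tested. Gad1, Slc32a1 and Slc12a5 had enough UMIs in only 8, 4 and 5 of the 10 types, and passed in none of these.

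Of the 48 other pathway genes, 271 pairs of a gene and a type were tested over the 10 types, and 16 were higher and 5 lower in the NCKO-labelled library. That is 7.75% in either direction, near the 7.09% of pairs over all genes, so the values that follow describe single genes. Kctd8, an auxiliary subunit of GABA-B receptors, was higher in radial glia or astrocyte-like (9.50 against 42.1 CPM), MGE-like (236 against 375 CPM) and Tshz1 and Pbx3 nuclei (21.9 against 57.4 CPM), and lower in CGE-like nuclei (47.2 against 29.7 CPM). Kctd16, of the same family, was higher in layer 6-like (a log2 ratio of 1.24), Tshz1 and Pbx3 (59.7 against 111 CPM) and oligodendrocyte precursor-like nuclei (27.5 against 140 CPM). Gabarapl2, a relative of Gabarap, was lower in radial glia or astrocyte-like (113 against 59.3 CPM) and Tshz1 and Pbx3 nuclei (167 against 89.1 CPM). Nrxn3 was lower in migrating-like nuclei (733 against 478 CPM) and the adaptor Trak1 in oligodendrocyte precursor-like nuclei (196 against 78.8 CPM). Glra3, another glycine receptor subunit, was higher in upper-layer-like (2.75 against 6.81 CPM) and layer 6-like nuclei (3.60 against 10.4 CPM). Higher were also Trak2 in radial glia or astrocyte-like (16.3 against 32.7 CPM), the glycine transporter Slc6a9 (6.07 against 13.4) and Kctd12 (7.08 against 14.1) in layer 5-like, and Insyn2a in MGE-like nuclei (a log2 ratio of 0.91). The same held for Shisa7 in CGE-like (37.1 against 60.3 CPM) and Tshz1 and Pbx3 nuclei (29.9 against 52.8), and for the kinase Stk39 (51.8 against 117) and the dystrophin gene Dmd (209 against 352) in the latter.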

How the data were processed

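Both deposited matrices give raw UMI counts, one value for each gene in each barcode. Their headers name Cell Ranger 6.1.0. The build was mm10, per the submitters' processing notes, which also name Seurat without a role. Barcodes with under 500 genes or over 5% mitochondrial counts, and the highest doublet scores (0.8% per 1000 barcodes, Scrublet approach; 336 and 924 removed), were left out. Nuclei of both libraries were clustered together on 2000 variable genes, without the 26 genes and the 48 other pathway genes (30 components, 20 neighbours, Leiden resolution 1; leidenalg 0.10.2 on components from scikit-learn 1.9.0). A cluster took the class with the highest mean log2 fold of its 4 strongest markers, if this was at least 1 and ahead by 0.1, with 3 markers raised 1.5-fold. Clusters whose 10 leading genes went against the name stayed unnamed. Clusters of at least 100 nuclei with close scores (within 0.8) were split once at resolution 0.7. The choice of variable genes and this rule were settled, over several versions, after the clusters and their sizes per library had been seen, and an earlier rule is among the alternatives. The members and lists were chosen with earlier results of these data known. The "named genes" rule was that all 26 genes are named by role, those past the fold in full, and other pathway genes that pass between the libraries. CPM, Poisson and binomial intervals were computed here with scipy 1.17.1, and genes under 50 UMIs in a type were not compared. The ratio step was tested on simulated Poisson counts of whole types. Such counts do not clump in single nuclei as some UMIs here do, so they cannot show how the intervals hold for clumped genes. Positions are from GENCODE vM21 (26 of 26 matched). Values of some other pathway and lineage genes are not reported here.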

Additional observations from a re-analysis of the deposited data

Results flagged for a closer look

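Gad2 lay past 1.5-fold one way in radial glia or astrocyte-like nuclei (log2 ratio -0.80, NCKO-labelled over F/F-labelled) and the other way in migrating-like nuclei (0.81), from 59 and 51 and from 15 and 38 UMIs. The difference between the types was not tested.

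Gabrb2 lay past 1.5-fold lower in upper-layer-like nuclei (-0.68), from 2089 and 1652 UMIs, and higher in oligodendrocyte precursor-like nuclei (0.95), from 21 and 82 UMIs. This difference was not tested either.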

How the results depend on the processing

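No paired analysis was possible because each label has 1 library. For the same reason no replicate could be left out. The lowest levels rest on few UMIs, and the limits below concern mostly such genes. Of the 274 log2 ratios of a member in a type or group, 3861 of 3987 recomputed values kept their direction where called and their side of the limit. Most of the 274 lay under the limit, and for these a kept value means only that they stayed there. Among the rest, 59 values fell under the limit and 5 turned round, all of them from the few ratios past it, and 62 rose past it. The cause of each change below was not tested, except that a higher minimum of UMIs leaves fewer genes to test. The settings that leave out small clusters or cluster 37, and the naming from the mean of all markers (at least 0.5, which leaves 42 of 83 clusters unnamed and 20 F/F-labelled nuclei in layer 5), were chosen after seeing the data.

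These values turned round: Gad2 in radial glia or astrocyte-like nuclei without doublet removal (0.012), Gabrg3 in oligodendrocyte precursor-like nuclei without doublet removal (-0.081) and with all barcodes (-0.33), Gabrg1 in interneuron-like nuclei when scored against all other nuclei (-0.40) and without cluster 37 (-0.40), and the interneuron over excitatory ratio of Gabrg1 in the NCKO-labelled library without cluster 37 (-0.11).

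The 17 higher and 3 lower pairs of a member and a type became 4 and 1 with at least 200 UMIs. The higher pairs became 10 with CPM + 20. The lower pairs became 5 with F/F weights of clusters, with all barcodes, at resolution 2 and with at least 20 UMIs, and 7 with no minimum. The 16 higher pairs of other pathway genes became 8 with CPM + 20.

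Members at least 2-fold lower in striatal-like than excitatory-like nuclei (1) became 3 with CPM + 1, 0 with CPM + 20, and 2 without doublet removal, at resolution 0.5 and 2, with clusters from the F/F library and with naming from all markers. Members higher in striatal-like than interneuron-like nuclei (2) became 1 with CPM + 20, all barcodes, members allowed in clustering, resolution 0.5 and 2, and clusters from the F/F library. Members lower in interneuron-like than excitatory-like nuclei (1) became 0 with all barcodes. The counts in either direction stayed within 1.5 times in these 3 comparisons.

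Counts of members past the fold, higher in the NCKO-labelled library, moved as follows. With at least 200 UMIs they became 1 in radial glia or astrocyte (from 3), layer 6 (2), CGE (2) and Tshz1 Pbx3 (4), and 0 in migrating (2), layer 5 (1), MGE (1), precursor (2) and interneuron nuclei (1). Without doublet removal they became 0 in layer 5, MGE and interneuron, 1 in CGE and 4 in precursor nuclei. With all barcodes they became 0 in layer 5, MGE and interneuron, 2 in Tshz1 Pbx3 and 4 in precursor nuclei. With clusters from the F/F library they became 0 in layer 5, MGE and interneuron, 1 in layer 6 and Tshz1 Pbx3 and 4 in precursor nuclei. Scored against all other nuclei, they became 1 in migrating and upper-layer (from 0) and 0 in layer 5, MGE and interneuron nuclei. Thinned to 1000 UMIs, they became 1 in migrating, 2 in upper-layer, 3 in striatal (from 0) and 0 in precursor nuclei. With CPM + 20 they became 0 in migrating, layer 5, MGE and interneuron and 1 in layer 6 nuclei, and with CPM + 1 they became 2 in layer 5, MGE and interneuron nuclei. Named from all markers, they became 0 in migrating, 2 in layer 5 and 1 in layer 6 nuclei. Centred on the median, they became 1 in migrating and layer 6 nuclei. Without small clusters layer 6 became 1, and without cluster 37 MGE and interneuron became 0. With members allowed in clustering migrating became 1 and interneuron 2, at resolution 0.5 migrating became 1, precursor 5 and interneuron 2, and at resolution 2 interneuron became 2. With no minimum CGE became 4 and precursor 7.

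Counts of members lower moved in radial glia or astrocyte nuclei from 1 to 0 (200 UMIs, no doublet removal, all barcodes, scored against all other nuclei, thinned) or 2 (F/F weights, clusters from the F/F library, without small clusters). In upper-layer nuclei 1 became 2 with F/F weights and 0 without doublet removal and at resolution 0.5. In precursor nuclei 1 became 0 (200 UMIs, clusters from the F/F library, thinned, CPM + 20), 2 (no doublet removal, resolution 0.5), 3 (all barcodes, 20 UMIs) or 4 (no minimum). In migrating nuclei 0 became 2 when scored against all other nuclei and 1 when thinned, with members allowed and at resolution 2. In Tshz1 Pbx3 nuclei 0 became 1 with all barcodes, clusters from the F/F library, resolution 2 and no minimum. In layer 5 nuclei 0 became 1 without doublet removal.

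Counts of other pathway genes higher became, with CPM + 20, 1 in radial glia or astrocyte (from 2), layer 6 (2) and MGE (2) and 0 in upper-layer (1), layer 5 (2), CGE (1) and interneuron nuclei (1). With CPM + 1 they became 2 in upper-layer and 1 in excitatory nuclei (from 0). Counts lower became 0 in CGE (from 1) with CPM + 20, and with CPM + 1 became 2 in migrating (1) and 1 in excitatory and all nuclei (0).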
